A study of Gallus gallus with 4 samples.

Results

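A set of 3 genes of muscle myosin are described here across a comparison of broiler breast muscle: MYL2, MYL3 and MYL4, the regulatory and essential light chains of slow, cardiac and embryonic muscle. They were chosen by name, with earlier results of these data known. The rule took the features of a chicken microarray whose platform symbol is MYL2, MYL3 or MYL4. This gave 3 features of 45220, with 1 feature for each gene. All 3 had a value on every array, as did 3494 named genes in all. RNA came from the breast muscle of male broilers of a single line, fed individually on a corn and soy diet and ranked by weight gain per feed intake from 6 to 7 weeks of age. There was no treatment. On each of 4 two-colour arrays, muscle RNA from high feed efficiency carried Cy5 and was set against low-efficiency RNA in Cy3. The labels call the arrays biological replicates and do not say whether RNA was pooled, so the p-values measure the spread between 4 arrays. The birds were ranked within the line, and the labels give no gain or intake for single birds.

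Muscle myosin is a motor built from heavy chains, each of which carries an essential and a regulatory light chain on the neck that swings during contraction. Fibre types use different sets of these chains. MYL3 is the essential light chain of slow fibres and of the heart ventricle. MYL4 is the essential light chain of embryonic muscle and of the atrium. MYL2 is the regulatory light chain of slow fibres and of the ventricle, and its phosphorylation by myosin light chain kinase tunes force. Broiler breast muscle consists almost wholly of fast fibres, so these light chains are minor forms in it. Ratios show no level, so the tissue label could not be checked against the levels of its markers.

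All values are log2 ratios within an array, after the median of that array was set to 0. A negative value likely means less RNA in the high-efficiency muscle, because the labels put that RNA in channel 2, and such ratios are usually formed with channel 2 on top. The numerator dye is not stated, and with the other numerator every sign turns around. No array had its dyes swapped, so dye and efficiency group cannot be told apart for any gene.

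MYL3 had a lower ratio than MYL4 and MYL2 on every array, and whether MYL4 and MYL2 differ was not settled by these arrays. MYL3 was 6.32-fold lower in the high-efficiency muscle, MYL4 was 1.60-fold lower, and MYL2, at 1.21-fold lower, did not pass the test. In limma's fit over all named genes, with Benjamini-Hochberg adjustment at 0.05, 2 of the 3 genes were called lower and 0 higher. Over all 3494 genes 6.10% were called lower and 24.6% in either direction. The 3 genes were chosen with earlier results of these data known, so their count is only a description.

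MYL3 gave log2 ratios of -2.46, -2.53, -2.89 and -2.76 on arrays 1 to 4. All 4 arrays were low, the weakest being 5.49-fold and the strongest 7.42-fold lower in the high-efficiency channel. The mean was -2.66 ± 0.20 (SD, n = 4), with a 95% interval of -2.91 to -2.41 from the moderated fit (adjusted p = 0.00366). MYL3 had the second lowest mean of the 3494 genes, and on single arrays it stood at rank 37, 20, 19 and 19 from the lowest. Its SD was near the middle of all genes, since 54.6% of genes had a smaller one. Over all 31722 features measured on every array, 1.19% were called lower, and the MYL3 feature was among them (adjusted p = 0.00251). Its mean was 18th from the lowest among these features, of which only 11.7% carry a symbol. Without array 2 the mean was -2.70 and the adjusted p was 0.0503, in a fit where 4 genes in all were called.

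MYL4, the other essential light chain, gave -0.20, -0.82, -0.68 and -1.01. All 4 arrays lay below 0, as they did for 15.6% of all genes, but array 1 held only a 1.15-fold difference against 2.01-fold on array 4. The mean was -0.68 ± 0.35 (SD, n = 4), with a 95% interval of -1.09 to -0.27 and an adjusted p of 0.0432 from limma over named genes. MYL4 was 227th from the lowest mean, and its SD was larger than that of 70.2% of genes. The same feature did not pass when the adjustment ran over all 31722 features (adjusted p = 0.0988). It did not pass either without array 2 (adjusted p = 0.15), array 3 (0.142) or array 4 (0.114), nor by the unmoderated t statistic of the same limma fit (0.101), and it passed without array 1 (mean -0.84, adjusted p = 0.04).

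MYL2, the regulatory light chain, gave -0.18, -0.32, -0.72 and 0.12. It was below 0 on arrays 1 to 3 and above 0 on array 4, where 61.2% of genes were lower than it. The mean was -0.27 ± 0.35 (SD, n = 4), and the 95% interval of -0.69 to 0.14 included 0 (limma, adjusted p = 0.267). The interval runs from 1.61-fold lower to a slightly higher level, so a moderate fall is within it as well as no change. With the values as deposited, where the whole gene set is shifted down by 0.44, the MYL2 mean was -0.71 and passed (adjusted p = 0.0418), but there 32.7% of all genes were called lower.

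**Figure D1:**
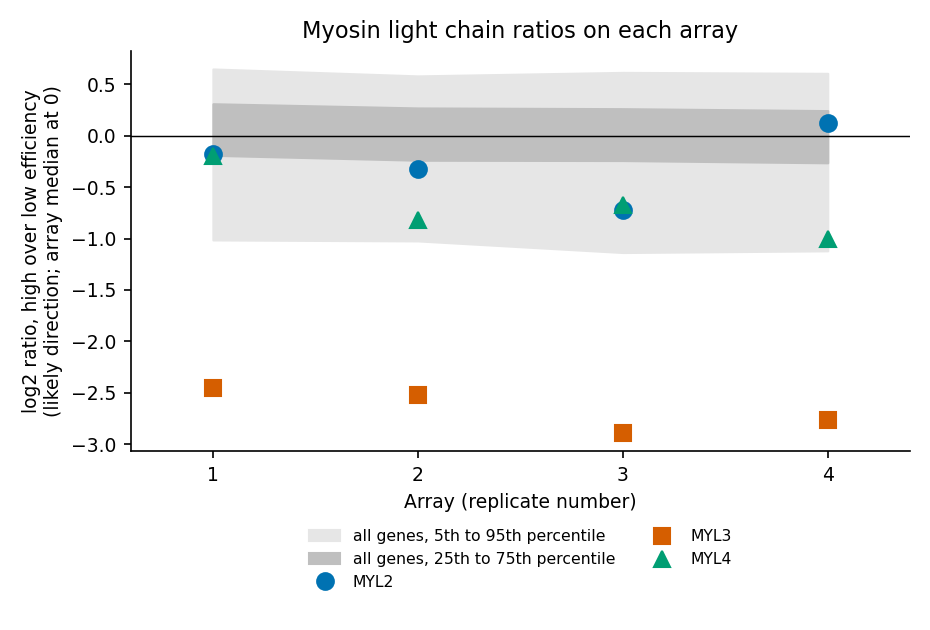
Log2 ratios of the 3 light chains (vertical axis, high over low efficiency in the likely direction, array median at 0) on each of the 4 arrays (horizontal axis), over bands that span the 25th to 75th and the 5th to 95th percentile of 3494 genes on that array. MYL3 lies between -2.46 and -2.89, below the bands on every array, while MYL2 and MYL4 lie inside the wider band.

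The differences between light chains within an array do not depend on where the array is centred. The log2 ratio of MYL3 minus that of MYL4 was -2.26, -1.70, -2.22 and -1.76 on arrays 1 to 4, always lower for MYL3. The mean difference was -1.98 ± 0.29 (SD, n = 4), so the ratio of these essential light chains to each other was shifted 3.95-fold between the channels, in the same direction on all 4 arrays. MYL3 was also lower than MYL2 on every array, with differences of -2.28, -2.21, -2.17 and -2.89 and a mean of -2.39 ± 0.34. MYL4 and MYL2 differed by -0.02, -0.50, 0.04 and -1.13. Here arrays 1 and 3 were near 0 and array 4 held the widest gap, and the mean of -0.40 ± 0.54 was smaller than its own SD. In an exact sign-flip permutation test over the 4 arrays, two-sided, these 3 comparisons gave p = 0.125, 0.125 and 0.375 (0.188, 0.188 and 0.375 adjusted over the 3). The smallest p that 4 arrays allow is 0.125, so this test cannot reach 0.05.

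**Figure D2:**
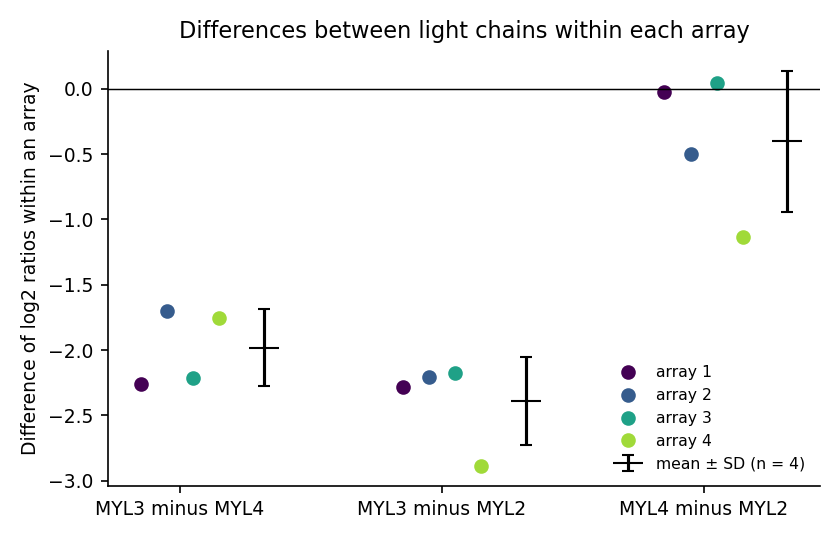
Difference of log2 ratios between light chains within each of the 4 arrays (coloured points), with the mean and SD over arrays beside them (black). The differences of MYL3 from MYL4 and from MYL2 lie between -1.70 and -2.89 on every array, and the difference of MYL4 from MYL2 runs from 0.04 to -1.13.

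The wider light chain family gave few further values. Of 13 listed family members 5 were measured on every array, and 3 of these are MYL2, MYL3 and MYL4 themselves. The median of the 5, -0.27 against 0.01 for all genes, is the mean of MYL2. The 2 called lower were MYL3 and MYL4, beside 6.1% of all genes. MYL1, the essential light chain of fast fibres, gave -0.20, -0.58, -0.04 and 0.04, a mean of -0.20 ± 0.28 that did not pass (limma, adjusted p = 0.314). MYL9, a regulatory light chain of smooth muscle and non-muscle cells, had a mean of -0.08 ± 0.19 (adjusted p = 0.54). With the values as deposited, where the whole gene set is shifted down, all 5 were called lower, as were 32.7% of all genes. Among genes listed for light chain phosphorylation, 1 of 3 measured ones reported here was higher and 0 were lower, against 18.5% of all genes called higher. Calmodulin gene CALM2, whose product activates myosin light chain kinase, stood at 0.74 ± 0.13 (adjusted p = 0.00892), and as deposited at 0.30, where it did not pass (adjusted p = 0.151). The protein phosphatase 1 subunits PPP1CC (0.11 ± 0.08, adjusted p = 0.193) and PPP1CB (-0.01 ± 0.11, adjusted p = 0.91) did not pass in limma. MYLK, a gene for a myosin light chain kinase, did not have a value on every array and was not tested.

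Light chains work bound to heavy chains, of which 5 of 21 listed genes were measured. The slow heavy chain MYH7B gave -1.47, -2.32, -3.35 and -2.94, a wider spread than MYL3. MYL3 was below MYH7B on arrays 1 and 2 and above it on arrays 3 and 4, with a mean difference of -0.14 ± 0.63. MYH15, the ventricular heavy chain of the chick, carried on the platform as MYH6, gave -2.34, -2.20, -2.30 and -2.29. MYL3 was lower than MYH15 on all 4 arrays, with a mean difference of -0.38 ± 0.20. MYL4 lay above MYH7B and above MYH15 on every array, by 1.85 ± 0.62 and 1.60 ± 0.38, and MYL2 by 2.25 ± 0.77 and 2.01 ± 0.36. MYH7, the atrial heavy chain of the chick, gave -0.06, 0.65, 1.31 and 0.95, and did not pass (0.72 ± 0.58, adjusted p = 0.115). All 3 light chains were lower than MYH7 on every array, with a mean difference of -1.39 ± 0.87 for MYL4. The non-muscle heavy chain MYH10 did not pass either (-0.16 ± 0.08, adjusted p = 0.0996). MYH7B and MYH15 were the 2 of 5 heavy chains called lower and 0 were called higher, beside 6.10% and 18.5% of all genes. These differences between light and heavy chains are given as descriptions, with no test. Features of paralogous chains may share sequence, and the probe sequences were not used here, so how far each feature reads only its own gene was not checked.

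Other genes of slow and cardiac muscle, from filament proteins to calcium handling, LIM proteins and the heart-type lactate dehydrogenase, were set beside the light chains. Of 11 measured genes of that list 10 were lower, 0 were higher and 1 did not pass, where 6.10% of all genes were lower and 18.5% higher. This list, like the others used here, was chosen with earlier results of these data known, so its count is only a description. The list median was -0.99 against 0.01 for all genes, with array medians between -0.92 and -1.08. Placed by mean only, MYL3 lay below the lowest of the 11, CSRP3, at -2.53 ± 0.08. MYL4 lay near cardiac myosin-binding protein C, MYBPC3 (-0.69 ± 0.19), and cardiac troponin T, TNNT2 (-0.59 ± 0.04). On array 1, however, MYL4 was at -0.20 against -0.74 for MYBPC3 and -0.57 for TNNT2. MYL2 lay between TNNT2 and TPM3, the slow tropomyosin and the 1 that did not pass (-0.18 ± 0.07, adjusted p = 0.0651). Between MYL3 and MYL4 lay PLN (-2.02 ± 0.04), which inhibits the slow calcium pump, the slow thick filament protein MYBPC1 (-1.78 ± 0.25), the actin filament protein LMOD2 (-1.63 ± 0.22) and slow troponin I, TNNI1 (-1.43 ± 0.10). Nearer to MYL4 were the lactate dehydrogenase LDHB (-0.99 ± 0.08), the LIM protein gene FHL2 (-0.78 ± 0.10) and the slow and cardiac calcium pump ATP2A2 (-0.75 ± 0.07). Another 4 genes of the list, TNNC1, TPM1, CASQ2 and ANKRD1, were at a deposited ratio of 1 and gave no measured value. In the fast list 1 of 4 measured genes was higher and 2 were lower, beside the same 18.5% and 6.10% of all genes: troponin T of fast fibres, TNNT3, stood at 0.41 ± 0.07 (-0.03 as deposited), parvalbumin, PVALB, a calcium buffer, at -0.96 ± 0.15 and the Z-disc protein MYOT at -0.36 ± 0.14. The fast Z-disc gene MYOZ1 did not pass (0.15 ± 0.11). Of 14 listed fast genes only 6 were on the platform. Of these, 1, ACTN2, was at a deposited ratio of 1, and 1 lacked a value on some array. The fast count therefore covers few of the listed fast genes. In bulk muscle, fewer fibres of a type and less RNA per fibre cannot be told apart.

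**Figure D3:**
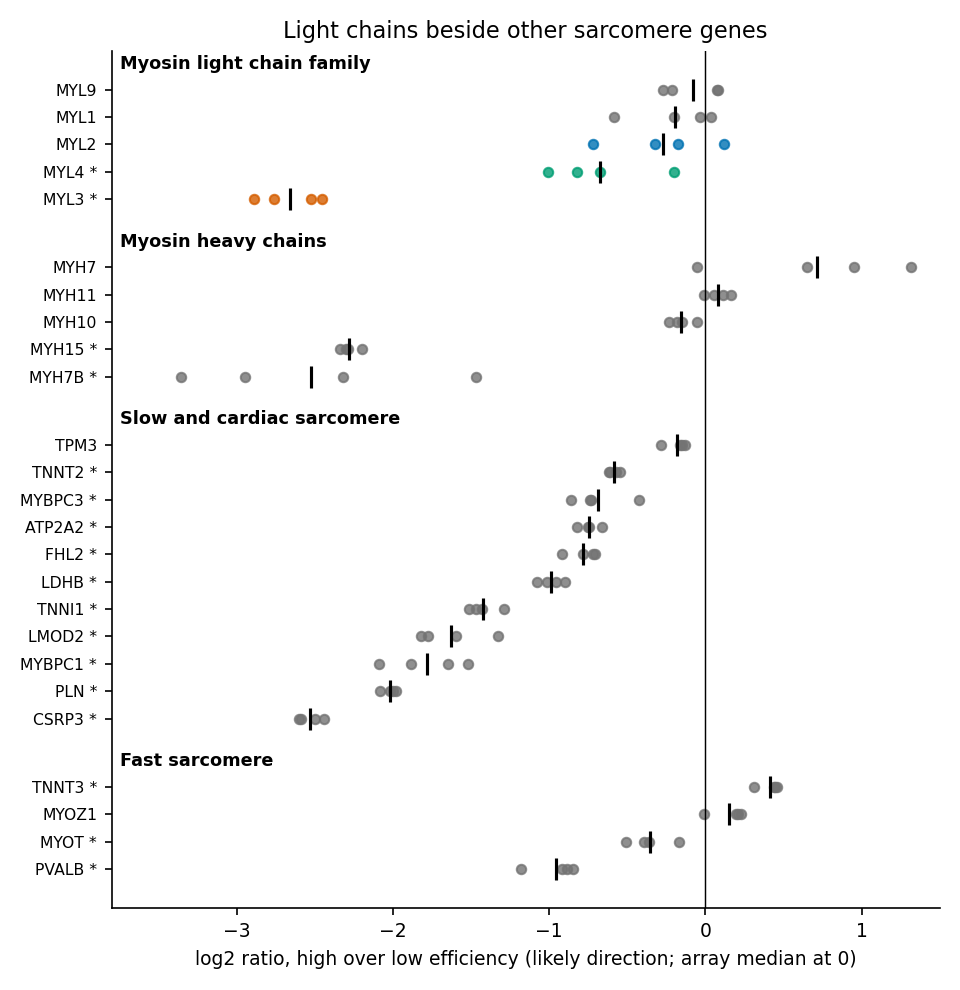
Log2 ratios (horizontal axis, high over low efficiency in the likely direction, array median at 0) of light chains (coloured) and of heavy chain, slow and fast genes (grey). Points are the 4 arrays, the black bar is their mean, and a star marks adjusted p under 0.05 in limma. MYL3, at -2.66, has the lowest mean shown, and MYL2 at -0.27 sits among genes near 0.

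MYL4 is an essential light chain of developing muscle, and genes of developing and regenerating muscle were looked at beside it. Of 9 measured genes 5 were higher, 1 was lower and 3 did not pass, where 18.5% of all genes were higher and 6.10% lower. The list median was 0.28 with the array median at 0. As deposited, where 32.7% of all genes were lower, it was -0.16, with 0 higher and 2 lower. The leukocyte list had 2 of 7 measured genes lower and 0 higher (median -0.49), the smooth muscle list 2 of 5 lower and 1 higher (median -0.25), the endothelial list 0 of 4 called (median -0.01), the fibroblast list 2 of 9 higher and 0 lower (median 0.03) and the erythrocyte list 1 of 4 higher (median -0.30). As deposited, 0 genes of these 5 lists were higher, and 6 leukocyte, 3 smooth muscle, 1 endothelial, 4 fibroblast and 2 erythrocyte genes were lower. The part of these cell types in the light chain ratios was not tested.

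The 5 genes nearest to each light chain were found by the root mean square difference of log2 ratios over the 4 arrays, among 3491 other named genes. For MYL3 they were PPP1R1C (0.17), an inhibitor of protein phosphatase 1, the muscle LIM protein gene CSRP3 (0.23), MYH15 (0.42), MYH7B (0.56) and phospholamban, PLN (0.67), the inhibitor of the slow and cardiac calcium pump. Only 3 genes lay within 0.5 log2 units of MYL3. For MYL4, 335 genes lay within 0.5, the nearest being GPRIN2 (0.15), the calcium-binding CALB2 (0.15) and NCALD (0.17), CYB561A3 (0.17) and the collagen receptor DDR2 (0.20). For MYL2, 1342 genes lay as near, led by the ephrin receptor EPHA1 (0.04), RPGR (0.11), KCNRG (0.13), the interferon regulatory factor IRF7 (0.13) and the kinase chaperone CDC37 (0.15). Of the 5 genes nearest to MYL3, 4 belong to the heavy chain or sarcomere lists used here. Of the 10 nearest to MYL2 and MYL4 0 do. Only genes with very low ratios can lie near MYL3, and the lists were chosen with earlier results of these data known. These counts are a description, with no test.

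**Figure D4:**
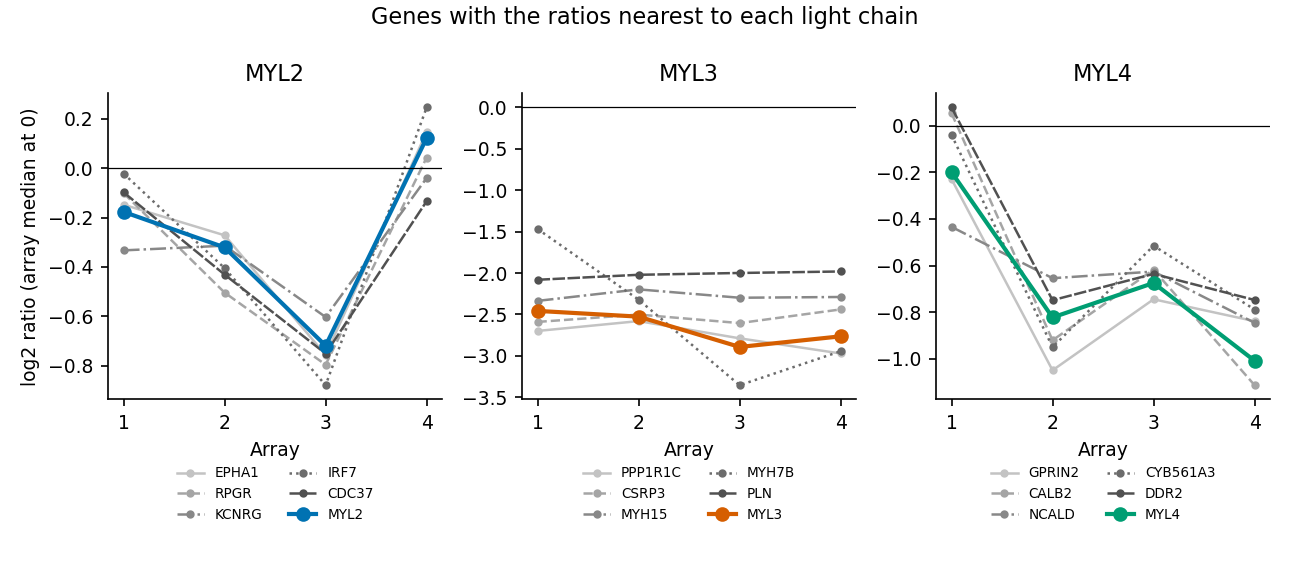
Log2 ratios on the 4 arrays (vertical axis, array median at 0) of MYL2, MYL3 and MYL4 (coloured, 1 panel each, with different vertical scales) and of the 5 named genes nearest to each (grey). Lines only join the values of a gene, since the arrays have no order; MYL3 and its 5 nearest genes lie between -1.47 and -3.35 on every array, whereas MYL2 crosses 0 on array 4.

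The light chain means stayed negative across centrings, and their size moved with the centre. Centring on the least variable features and leaving the values as deposited both lowered every gene mean, so a negative mean could not turn. Centring on the least variable features lowered every gene by 0.13 and gave -2.79 for MYL3, -0.81 for MYL4 and -0.40 for MYL2. As deposited, the values were -3.10, -1.12 and -0.71. Relative to the median of all genes the 3 values were -2.67, -0.69 and -0.28 under these 3 centrings alike. They could not differ, because each of these centrings shifts all genes on an array by the same amount.

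**Figure D5:**
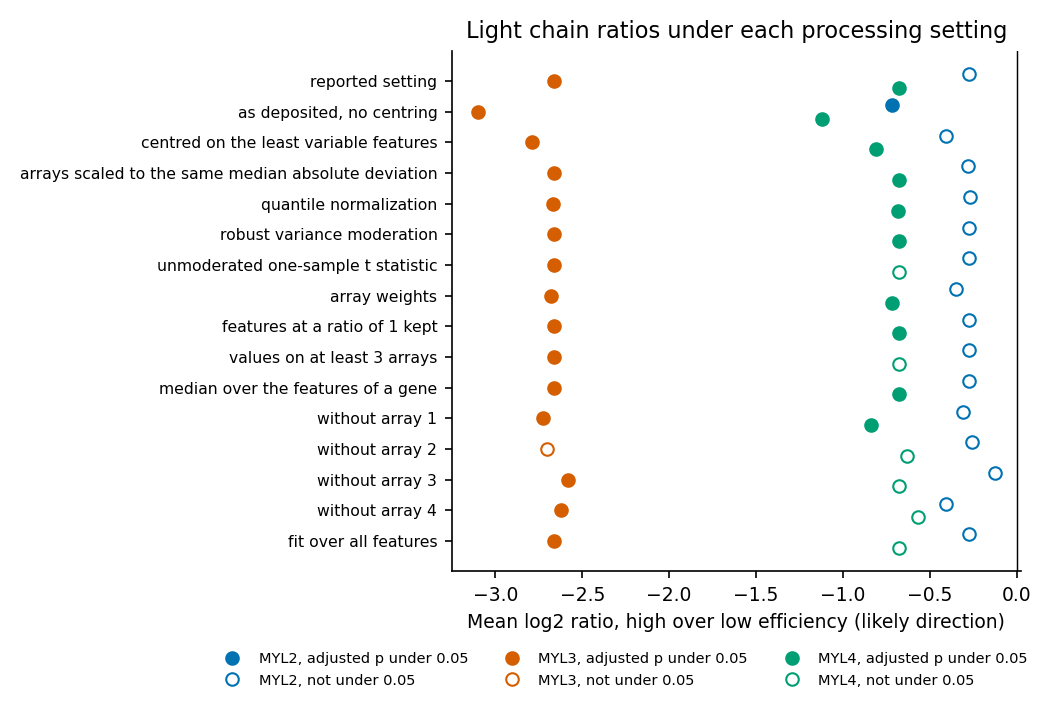
Mean log2 ratio of each light chain (horizontal axis, likely direction high over low) under each processing setting (vertical axis). Filled points have an adjusted p under 0.05 and open points do not; MYL3 is filled in all settings except without array 2, MYL4 is open in 6, and MYL2 is filled only as deposited.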

How the data were processed

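The authors deposited 1 log2 ratio of both dyes per feature and array (the values themselves show the log2 scale). The scanner, background correction and any normalization were not given in the sources used here. Deposited array medians ran from -0.19 to -0.58. Per the labels' protocols, Trizol RNA (2 µg) was used. Between 39376 and 40278 features per array were measured, leaving out values at a ceiling of 16.61 and 160 features whose ratio was 1 (log2 within 0.005 of 0) on 3 or 4 arrays. Spot brightness was not analysed here, so dim features could not be filtered, and array number limits the precision. Symbols came from a platform table (4391 features with 1 symbol, 0 with several, 40829 with none) and were updated through unique synonyms in the RefSeq table of GRCg7b (410 symbols); no coordinates or sequences were used. Genes are means over features. Intercept-only models were fitted with limma 3.58.1 in R 4.3.3, two-sided. A simulation of independent values with known changes checked only their recovery and sign, and it held no dye bias. Differences between members used exact sign-flip tests (scipy 1.17.1). By rule, the text names all members, genes of the sarcomere and light chain lists that passed or had the 4 smallest p-values, and the 5 nearest genes per member. Of other genes, MYL9, MYLK, TPM3 and the genes at a ratio of 1 were named after their values were seen. The members and lists were chosen with earlier results of these data known. Some regulators of light chain phosphorylation are not reported here. Alternatives covered centring, scaling, variance moderation, weights, filters, thresholds and each array left out.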

Additional observations from a re-analysis of the deposited data

Results flagged for a closer look

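In 4 of 39 values an array lay far from the other 3 by Dixon's criterion, which chance alone gives in about 1 of 20. For the difference of MYL3 from MYL2, array 4 (-2.89) stood apart from -2.28 to -2.17 on the others, with a gap of 0.85 of the whole range. Array 4 is where MYL2 lay above 0. DDR2, among the genes nearest to MYL4, stood at 0.08 on array 1 and between -0.75 and -0.64 on the others (gap 0.864). TNNT3 was at 0.31 on array 3 and 0.44 to 0.46 elsewhere (gap 0.877), and MYOZ1 was at -0.01 on array 1 and 0.19 to 0.23 elsewhere (gap 0.865).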

How the results depend on the processing

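MYL3 stayed negative under all 15 alternatives and lost its call under 1, without array 2. Over the arrays left out in turn its mean ran from -2.73 to -2.58 and its adjusted p from 0.0385 to 0.0503. MYL3 and MYL4 lay below 0 on every array, so leaving out an array could not turn their sign. Several other alternatives changed only the p-value and kept the mean. MYL4 stayed negative under all 15 and lost its call under 6: 3 of the arrays left out (means from -0.84 to -0.57 over the 4), and, at the same mean of -0.68, the unmoderated t statistic (adjusted p = 0.101), values on at least 3 arrays (0.0557) and the adjustment over all features (0.0988), which was added after seeing the data. MYL2 stayed negative under all 15 and passed as deposited only (-0.71); with arrays left out its mean ran from -0.41 to -0.13. Under scaling, quantile normalization and each array left out, MYL4 minus MYL2 kept its sign, and MYL3 minus either, always negative, could not turn. The gene calls, 861, numbered 4 to 404 with 1 array left out and 171 at an adjusted p under 0.01. The feature calls, 1258, numbered 120 to 142 with 1 array left out, 3431 as deposited, 2494 by the unmoderated t statistic, 389 with values on at least 3 arrays, 199 at 0.01 and 3715 at 0.1. The split of higher to lower genes moved from 648 and 213 to 280 and 343 with the least variable features at 0, and to 9 and 1142 as deposited. As deposited, PPP1CC (-0.33), TNNT3 (-0.027) and MYOZ1 (-0.29) turned negative, and with the least variable features at 0 PPP1CC did (-0.017); with 1 array left out PPP1CB ran from -0.0653 to 0.0217. Both other centrings shift all genes on an array by the same amount, and in these data the mean shift over arrays was downward. Of the other named list genes that passed, MYH15, PLN and CSRP3 did so under each alternative, and the rest lost the call or turned sign under at least 1. Each ratio compares both efficiency groups within an array, and no further pairing was used. Signal over background is unknown, so a ratio pulled towards 1 by a dim or saturated spot cannot be seen, and 1 feature per light chain leaves no second probe to set beside it.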
